A study of Mus musculus with 12 samples.

Results

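Igf2, its antisense transcript Igf2os, H19 and 7 further imprinted genes (Cdkn1c, Plagl1, Grb10, Peg3, Peg10, Snrpn and Ndn) were followed library by library in cultured mouse neurons. These 10 genes, of 33560 genes with counts, were chosen by symbol as imprinted genes outside the Dlk1-Dio3 cluster, with their read counts in the same 12 libraries already known. Their levels and differences between groups are therefore given as descriptions, with a standard error (SE) or standard deviation (SD) and without a test. All 10 symbols matched 1 Ensembl identifier each, and all 10 passed the filter on low counts.

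RNA was sequenced from glutamatergic neurons differentiated in vitro from mouse embryonic stem cells and taken at day 21. Wild-type (WT) cultures came from 3 cell lines of the labelled line Daam1-MIC_WT. Knockout (KO) cultures came from 3 cell lines labelled Daam1-MIC_KO, in which a microexon of Daam1, a formin that assembles actin filaments, had been deleted; a count per gene does not read a microexon, so the deletion cannot be checked here. Each of the 6 lines gave 1 culture exposed to water as vehicle and 1 exposed to 10 µM Y-27632, an inhibitor of the kinases ROCK1 and ROCK2, both for 2 h, which makes 4 groups of 3 libraries. Numbers 1 to 3 name the cell line, so WT vehicle 1 and WT inhibitor 1 are the same line. The series text speaks of adult hippocampus, whereas every sample label describes cultured neurons, and the sample labels were followed. How the KO lines relate to each other, as clones, is not given in the sources used here.

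Imprinted genes are expressed from 1 parental chromosome, because methylation laid down in the egg or the sperm is kept in the embryo. Igf2 encodes an embryonic growth factor and is read from the paternal copy, while the neighbouring long non-coding RNA H19 is read from the maternal copy. The methylation-sensitive insulator between them, bound by CTCF on the maternal copy, decides which gene reaches the shared enhancers. In the brain, Igf2 is best known from the meninges and the choroid plexus rather than from neurons, and several other imprinted genes, such as Snrpn, Ndn and Peg3, are abundant in neurons. A count per gene does not separate the parental copies, so nothing below bears on allelic use.

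Both H19 and Igf2 carry a microRNA hairpin in their transcription unit, and their products are shown because H19 and Igf2, their hosts, are the genes that the results below turn on. The sequences are those of RefSeq (GRCm38.p6), 5′ to 3′, with the seed, bases 2 to 8, in capitals.
miR-675-5p: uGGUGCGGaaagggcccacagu
miR-675-3p: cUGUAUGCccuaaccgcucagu
miR-483-5p: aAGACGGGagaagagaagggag
miR-483-3p: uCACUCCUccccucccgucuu
The H19 products lie at chr7:142577112-142577133 (5p) and chr7:142577078-142577099 (3p) on the minus strand, inside an exon of 3 of the 7 annotated H19 transcripts. The Igf2 products lie at chr7:142654968-142654989 (5p) and chr7:142654932-142654952 (3p) on the minus strand, in an exon of none of the 9 annotated Igf2 transcripts. No 2 of the 4 seeds are the same. Libraries of poly(A) RNA do not measure mature microRNAs, so the counts below are those of the host transcripts alone.

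RefSeq lists 4 starts for Igf2, and windows from 250 bases before to 50 bases after each start were searched on both strands for the GC box GGGGCGGGG, the TATA box TATAAA and the YY1 core GCCATNTT. Of the 32851 mouse promoter windows of this length, 11.4% hold the GC box, 13.6% the TATA box and 6.05% the YY1 core. The 4 Igf2 windows hold 2, 14, 24 and 7 CpG dinucleotides, from the most upstream start to the most downstream one, against a median of 7 over all windows. The starts at 142666816 and 142661271 lie inside the span of Igf2os, and those at 142658804 and 142657496 lie outside it. The windows of the most upstream and most downstream starts are printed to show how unlike the promoters summed in 1 Igf2 count are. Capitals mark the GC box, which is in the downstream window alone among the 4; none of them holds the TATA box or the YY1 core.
Igf2 upstream window, chr7:142666767-142667066, minus strand: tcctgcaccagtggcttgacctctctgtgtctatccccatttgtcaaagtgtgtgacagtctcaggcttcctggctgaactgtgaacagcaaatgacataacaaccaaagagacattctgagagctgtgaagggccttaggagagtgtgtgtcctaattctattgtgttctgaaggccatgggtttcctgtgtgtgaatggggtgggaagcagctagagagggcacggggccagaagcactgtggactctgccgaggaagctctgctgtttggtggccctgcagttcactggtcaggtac
Igf2 downstream window, chr7:142657447-142657746, minus strand: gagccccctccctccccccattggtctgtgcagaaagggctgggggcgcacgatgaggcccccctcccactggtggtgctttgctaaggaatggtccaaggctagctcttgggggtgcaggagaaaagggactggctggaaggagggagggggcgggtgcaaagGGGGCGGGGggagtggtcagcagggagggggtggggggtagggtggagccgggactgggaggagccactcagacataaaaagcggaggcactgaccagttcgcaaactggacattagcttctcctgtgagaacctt
The deposited counts are per gene, so they do not show which start was used. In all, 6 of the 10 genes had entries in the promoter table, with 13 windows; the others are Igf2os, H19, Cdkn1c and Peg10.

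The libraries held 23253566 to 35012561 counts. KO inhibitor 3 stood apart from the others: its median correlation with the other 11 libraries, over the log2 levels of all tested genes, was 0.854, against 0.953 to 0.986 for the rest. Levels below are CPM, read counts scaled by library size after TMM adjustment. Levels are compared between genes as cRPKM, the authors' deposited value per transcript length, except where a highest mean CPM is named. Slc17a6, the vesicular glutamate transporter of subcortical and young glutamatergic neurons, was at 242 to 424 CPM in 11 libraries and at 51.7 CPM in KO inhibitor 3. Slc17a7, the cortical and hippocampal transporter, was at 0.599 to 2.04 CPM and so no more than weakly present. In bulk RNA, fewer cells of a type and less RNA per cell cannot be told apart, which holds for every level below.

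Igf2 (ENSMUSG00000048583, chr7:142650766-142666816, minus strand, GRCm38) was at 66.4 CPM or more in the 6 WT libraries and at 50.8 CPM or less in 5 of the 6 KO libraries, with WT vehicle 3 nearer to those 5 than to the other WT libraries. In WT vehicle it stood at 327, 924 and 66.4 CPM in lines 1, 2 and 3, from 9505, 23725 and 2035 reads. In KO vehicle it stood at 36.2, 13.1 and 22.7 CPM, from 989, 302 and 578 reads. All 3 KO vehicle libraries lay below the lowest WT vehicle library, and the WT libraries themselves lay far apart. The group means were 439 ± 440 CPM in WT and 24.0 ± 11.6 CPM in KO (SD, n = 3), a ratio of 18.3, and the fitted difference was −4.19 ± 1.44 (log2, SE).

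With the inhibitor, Igf2 stood at 284, 254 and 793 CPM in WT lines 1, 2 and 3 and at 50.8, 17.2 and 783 CPM in KO lines 1, 2 and 3. KO inhibitor 3 therefore reached the level of the highest WT libraries, and the other 2 KO libraries stayed below every WT library. The means were 444 ± 303 CPM in WT and 284 ± 433 CPM in KO (SD, n = 3), and the fitted KO minus WT difference was −0.65 ± 1.26. Without KO inhibitor 3 the same difference was −3.71. With counts summed over the 2 libraries of each line, KO minus WT was −1.37 ± 1.19, and −3.86 without KO line 3. In the order of the group means, WT inhibitor, WT vehicle, KO inhibitor and KO vehicle, every pair of neighbours overlapped.

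On the cRPKM scale Igf2 ran from 3.55 in KO vehicle 2 to 244.8 in WT vehicle 2, with a median of 43.6. In WT vehicle 2 it ranked 181 among the 33560 genes by this value, and in KO vehicle 2 it ranked 9506. The same transcript was thus among the most abundant of 1 culture and of moderate level in another.

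Igf2os (ENSMUSG00000086266, chr7:142659693-142670356, plus strand) is the antisense transcript that overlaps the upstream part of Igf2. It stood at 3.03, 7.59 and 1.01 CPM in WT vehicle and at 0.403, 0.130 and 0.196 CPM in KO vehicle, the latter from 11, 3 and 5 reads. With the inhibitor it stood at 2.30, 2.40 and 4.43 CPM in WT and at 0.844, 0.376 and 9.16 CPM in KO. It was low in the KO libraries where Igf2 was low and highest of all in KO inhibitor 3. The fitted KO minus WT difference was −3.96 ± 1.24 in vehicle and 0.18 ± 1.06 in inhibitor, the latter −2.31 without KO inhibitor 3. By group mean the order was WT vehicle, KO inhibitor, WT inhibitor and KO vehicle, and only the last step, from 3.04 ± 1.20 to 0.243 ± 0.142 CPM (SD, n = 3), was free of overlap.

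Igf2 and Igf2os share 98 exonic bases on opposite strands. The library kit kept the strand per the labels, but whether the counting used it is not stated, so reads from the shared stretch cannot be told apart. The annotation also gives Igf2 3596 of its 5723 exonic bases in common with Gm49394, a protein-coding gene on the same strand. Gm49394 shares 1142 exonic bases with Igf2os, on the opposite strand. It is not analysed here, so Igf2 reads of the shared exons are uncertain. Igf2os reads were 0.555% to 2.13% of the reads of both genes. The lowest share was in WT inhibitor 3 (exact binomial 95% interval 0.466% to 0.658%) and the highest in KO inhibitor 2 (1.14% to 3.62%, from 13 Igf2os reads). Intervals of this kind cover counting error only.

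H19 (ENSMUSG00000000031, chr7:142575529-142578143, minus strand), the long non-coding RNA expressed from the maternal chromosome, lies 72622 bases from Igf2. It stood at 9.29, 58.6 and 1.08 CPM in WT vehicle, from 270, 1504 and 33 reads, and at 2.45, 0.173 and 0.863 CPM in KO vehicle, from 67, 4 and 22 reads. The groups overlapped, because WT line 3 lay below KO line 1. With the inhibitor it stood at 7.26, 6.59 and 5.98 CPM in WT and at 5.63, 0.145 and 46.6 CPM in KO. The 3 WT inhibitor libraries were close to each other, while the KO inhibitor libraries lay both below and above all of them. KO line 2 had the lowest H19 under both treatments, with 4 and 5 reads.

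The fitted KO minus WT difference of H19 was −4.29 ± 1.82 in vehicle, on means of 1.16 ± 1.17 against 23.0 ± 31.1 CPM (SD, n = 3). Without WT vehicle 2 it was −2.15. In inhibitor it was 1.40 ± 1.60, and −1.20 without KO inhibitor 3, so that 1 library set its sign. Between its highest and lowest library H19 differed 405-fold, against 70.7-fold for Igf2 and 7.46-fold for Plagl1. Its median cRPKM was 2.64, far below that of Igf2.

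**Figure D1:**
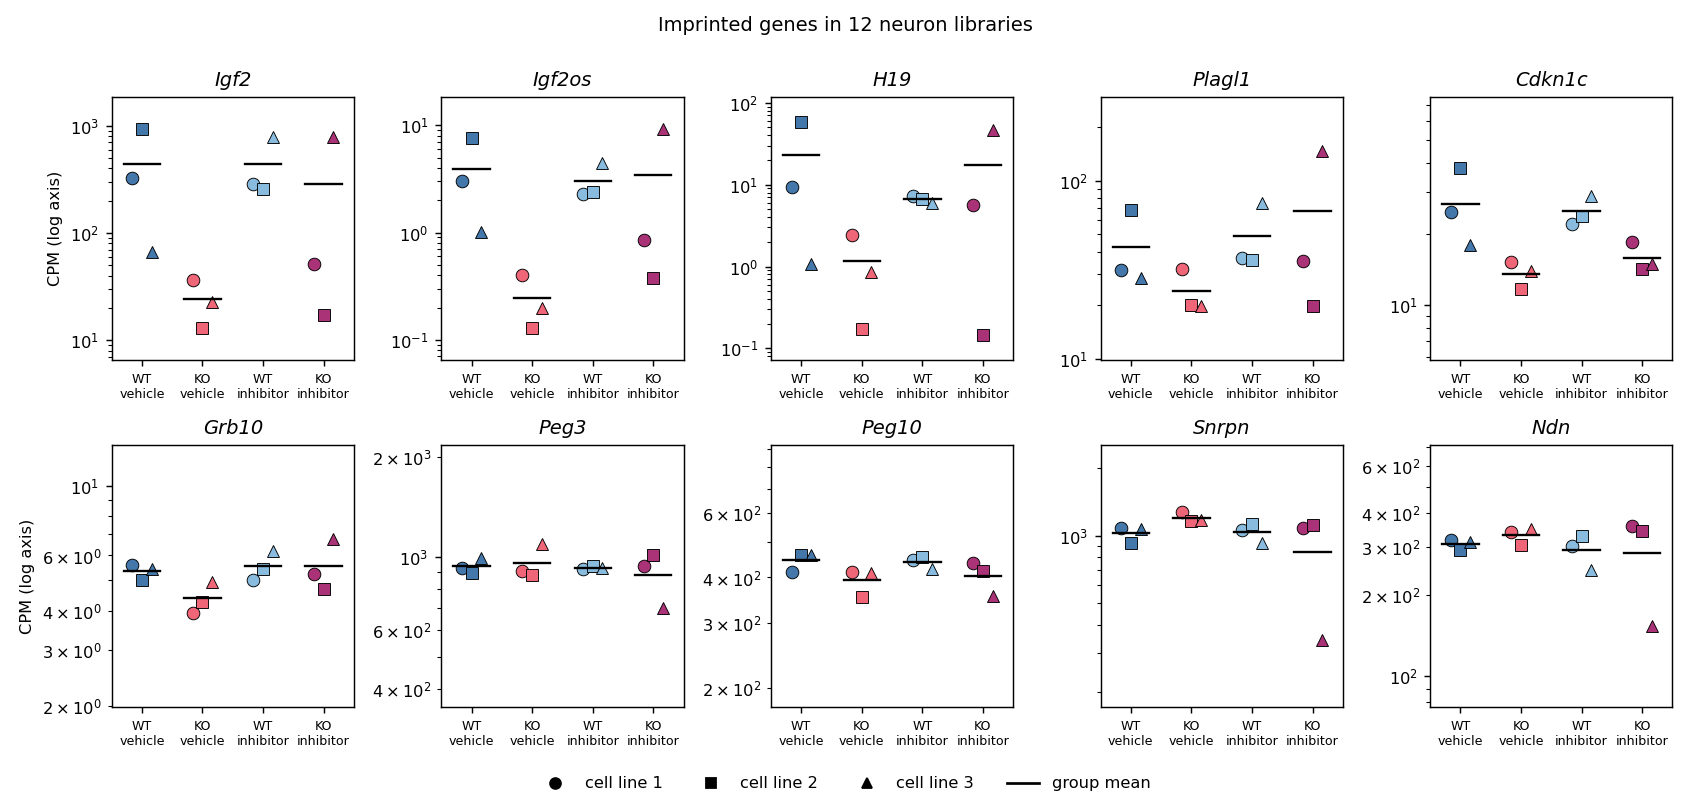
CPM of the 10 imprinted genes (log vertical axis, with its own range in each panel) in WT and KO neurons given vehicle or inhibitor; the marker shape gives the cell line and the horizontal line the mean of 3 libraries. Igf2 and H19 spread over 70.7-fold or more, KO inhibitor 3 is high in Igf2, Igf2os and H19, while Peg3 and Peg10 stay within 1.55-fold and 1.31-fold.

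H19 reads were 0.749% to 9.97% of the reads of H19 and Igf2 together. In vehicle the share was 2.76%, 5.96% and 1.60% in WT and 6.34%, 1.31% and 3.67% in KO. In inhibitor it was 2.50%, 2.53% and 0.749% in WT and 9.97%, 0.832% and 5.62% in KO. The highest share, in KO inhibitor 1 (exact binomial 95% interval 8.63% to 11.4%), came with a low Igf2 level, and the lowest, in WT inhibitor 3 (0.644% to 0.866%), with a high one. WT vehicle 2 and KO inhibitor 3, the libraries with the most H19, had similar shares of 5.96% and 5.62%. The shares of WT and KO overlapped under both treatments.

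**Figure D2:**
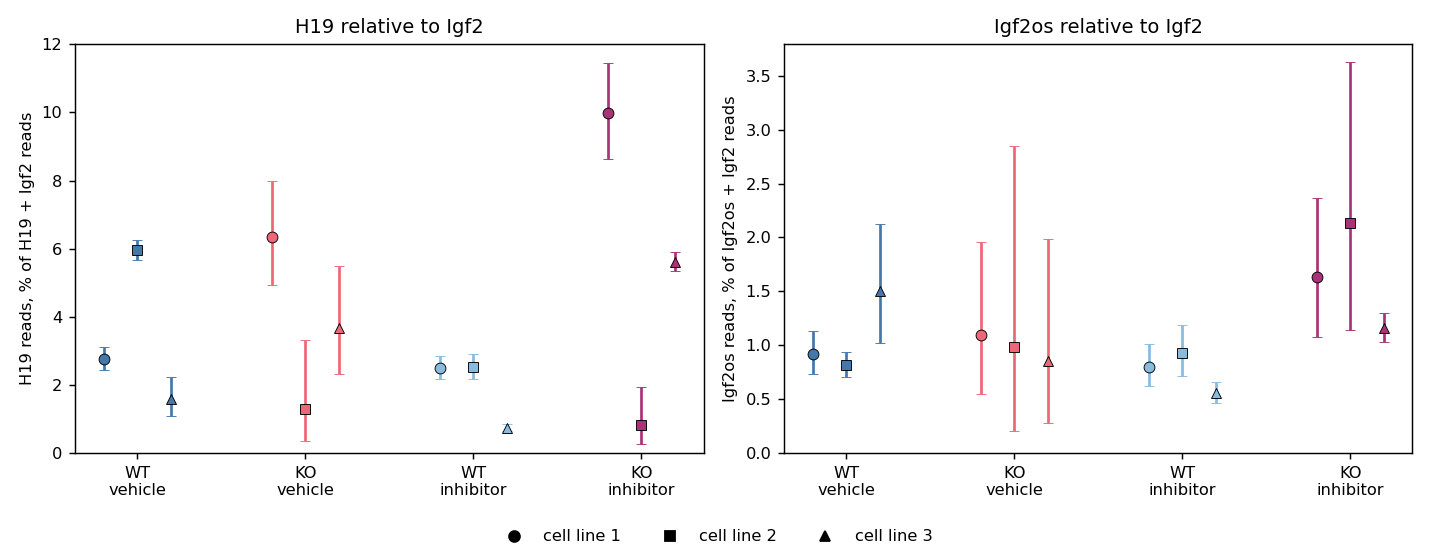
Left, H19 reads as a percentage of H19 and Igf2 reads; right, Igf2os reads as a percentage of Igf2os and Igf2 reads, with exact binomial 95% intervals for counting error, in each of the 12 libraries. H19 ranges from 0.749% to 9.97% with overlapping groups, and Igf2os from 0.555% to 2.13%.

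Plagl1 (ENSMUSG00000019817, chr10:13060504-13131694, plus strand) encodes a zinc-finger factor, expressed from the paternal chromosome, that is known to act on other imprinted genes, Igf2 and H19 among them. It stood at 31.5, 68.1 and 28.4 CPM in WT vehicle and at 32.1, 20.0 and 19.7 CPM in KO vehicle. With the inhibitor it stood at 36.9, 35.7 and 74.8 CPM in WT and at 35.5, 19.7 and 147 CPM in KO. The 3 libraries with the most Plagl1, KO inhibitor 3, WT inhibitor 3 and WT vehicle 2, were also the 3 with the most Igf2. KO and WT overlapped under both treatments; the fitted difference was −0.83 ± 0.68 in vehicle and 0.46 ± 0.68 in inhibitor, the latter −0.83 without KO inhibitor 3.

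Cdkn1c (ENSMUSG00000037664, chr7:143458339-143461050, minus strand), the maternally expressed cyclin-dependent kinase inhibitor p57, was lower in KO under both treatments, with no overlap in either. In vehicle it stood at 24.7, 37.9 and 17.9 CPM in WT and at 15.2, 11.7 and 13.8 CPM in KO. In inhibitor it stood at 22.0, 23.8 and 29.0 CPM in WT and at 18.4, 14.2 and 14.9 CPM in KO. KO inhibitor 3, high for Igf2, H19 and Plagl1, was within the KO range for Cdkn1c. The fitted KO minus WT difference was −0.98 ± 0.25 in vehicle, on means of 13.6 ± 1.77 against 26.8 ± 10.2 CPM, and −0.66 ± 0.25 in inhibitor, on means of 15.8 ± 2.25 against 24.9 ± 3.63 CPM (SD, n = 3).

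Over line sums the Cdkn1c difference was −0.77 ± 0.16, and over the 6 libraries of each genotype the medians were 24.2 CPM in WT and 14.5 CPM in KO. The gap between the lowest WT library (17.9 CPM, WT vehicle 3) and the highest KO library (18.4 CPM, KO inhibitor 1) closed once treatments were pooled. An antisense transcript over Cdkn1c, Gm44732, averaged 0.178 CPM.

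Grb10 (ENSMUSG00000020176, chr11:11930508-12038683, minus strand) encodes an adaptor that restrains insulin and IGF receptor signalling, and is known for paternal expression in neurons and maternal expression in most other tissues. It stood at 5.61, 5.02 and 5.45 CPM in WT vehicle and at 3.95, 4.28 and 4.94 CPM in KO vehicle. The 2 groups did not overlap, but the distance between their nearest libraries was under 0.1 CPM. In inhibitor it stood at 5.03, 5.43 and 6.18 CPM in WT and at 5.25, 4.68 and 6.74 CPM in KO, with overlap, and the fitted difference was −0.29 ± 0.20 in vehicle and 0.00 ± 0.20 in inhibitor. Its highest library was again KO inhibitor 3.

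Peg10 (ENSMUSG00000092035, chr6:4747306-4760517, plus strand), derived from a retrotransposon, and Peg3 (ENSMUSG00000002265, chr7:6703892-6730431, minus strand), a zinc-finger gene, both paternally expressed, were the steadiest of the 10. Peg10 stood at 415, 461 and 462 CPM in WT vehicle and at 414, 353 and 412 CPM in KO vehicle. In vehicle every KO library was below every WT library, by less than 2 CPM at the nearest pair, with a fitted difference of −0.18 ± 0.13. In inhibitor it stood at 448, 454 and 422 CPM in WT and at 437, 417 and 357 CPM in KO, which overlapped, with a difference of −0.13 ± 0.13. Peg3 stood at 925, 892 and 994 CPM in WT vehicle and at 905, 880 and 1092 CPM in KO vehicle, and the fitted difference was 0.03 ± 0.17. In inhibitor Peg3 stood at 922, 937 and 925 CPM in WT and at 939, 1013 and 702 CPM in KO, with a difference of −0.07 ± 0.17. Its lowest library was KO inhibitor 3.

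Snrpn (ENSMUSG00000102252, chr7:59982495-60140219, minus strand), which encodes a spliceosomal protein of neurons, and Ndn (ENSMUSG00000033585, chr7:62346569-62350262, plus strand), which encodes the growth-suppressing protein necdin, both lie in the region of the Prader-Willi syndrome genes and are paternally expressed. Snrpn stood at 1084, 932 and 1075 CPM in WT vehicle and at 1278, 1165 and 1178 CPM in KO vehicle, with every KO library above every WT library and a fitted difference of 0.23 ± 0.36. With the inhibitor it stood at 1066, 1127 and 926 CPM in WT and at 1083, 1116 and 342 CPM in KO. KO inhibitor 3, where Igf2 was high, thus had the lowest Snrpn by far. The annotation gives Snrpn exons in common with Snurf and Gm38393 on the same strand, which are not analysed here, so reads of the shared exons are uncertain.

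Ndn stood at 317, 294 and 314 CPM in WT vehicle, at 341, 306 and 351 CPM in KO vehicle, at 303, 328 and 247 CPM in WT inhibitor and at 358, 343 and 153 CPM in KO inhibitor. Its lowest library was again KO inhibitor 3 and its second lowest WT inhibitor 3, both rich in Igf2. Per length, Snrpn was the most abundant of the 10 (median cRPKM 640), followed by Peg3 (108), Ndn (88.4), Peg10 (64.9), Igf2 (43.6), Cdkn1c (9.98), Plagl1 (7.78), Grb10 (5.80), H19 (2.64) and Igf2os (0.37).

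The order of the 4 groups by mean differed between genes. H19 followed the order of Igf2os, and its last step, from WT inhibitor (6.61 ± 0.641 CPM) to KO vehicle (1.16 ± 1.17 CPM; SD, n = 3), was free of overlap. Cdkn1c ran WT vehicle, WT inhibitor, KO inhibitor, KO vehicle, with no overlap at the middle step between genotypes. Grb10 ran KO inhibitor, WT inhibitor, WT vehicle, KO vehicle, without overlap at the last step alone, and Snrpn had KO vehicle on top, without overlap with WT inhibitor, the next. For Plagl1, Peg3, Peg10 and Ndn every pair of neighbours overlapped.

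Read against all 15443 tested genes, the separation of groups in these genes stands as follows. In vehicle, 5 of the 10 (Igf2, Igf2os, Cdkn1c, Grb10 and Peg10) were lower in every KO library than in every WT library, and 1 (Snrpn) was higher. Over all tested genes the shares were 4.90% lower and 7.62% higher. In inhibitor, 1 of 10 (Cdkn1c) was lower without overlap and none was higher, against 7.03% and 3.51% of all genes. Since the genes were chosen with these counts known, nothing is read from the excess.

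No gene at all passed edgeR's quasi-likelihood test at a Benjamini-Hochberg adjusted p under 0.05 in KO against WT under either treatment or over line sums, so the share of genes called was 0% in each. At an unadjusted p under 0.05 there were 307 genes in vehicle, 540 in inhibitor and 426 over line sums. DESeq2 called 11, 18 and 88 genes in the same 3 comparisons. Of the 10 imprinted genes it called Cdkn1c alone, over line sums only, where it called 88 of 16090 genes. Since the 10 were chosen with these counts known, nothing is read from that call. Over line sums the spread measured is that between the 3 cell lines of a genotype. In the fit of 12 libraries it is pooled over the 4 groups, without a term for the line. KO inhibitor 3 therefore also bears on the SE in vehicle: without it, 1336 genes had an unadjusted p under 0.05 there (edgeR).

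**Figure D3:**
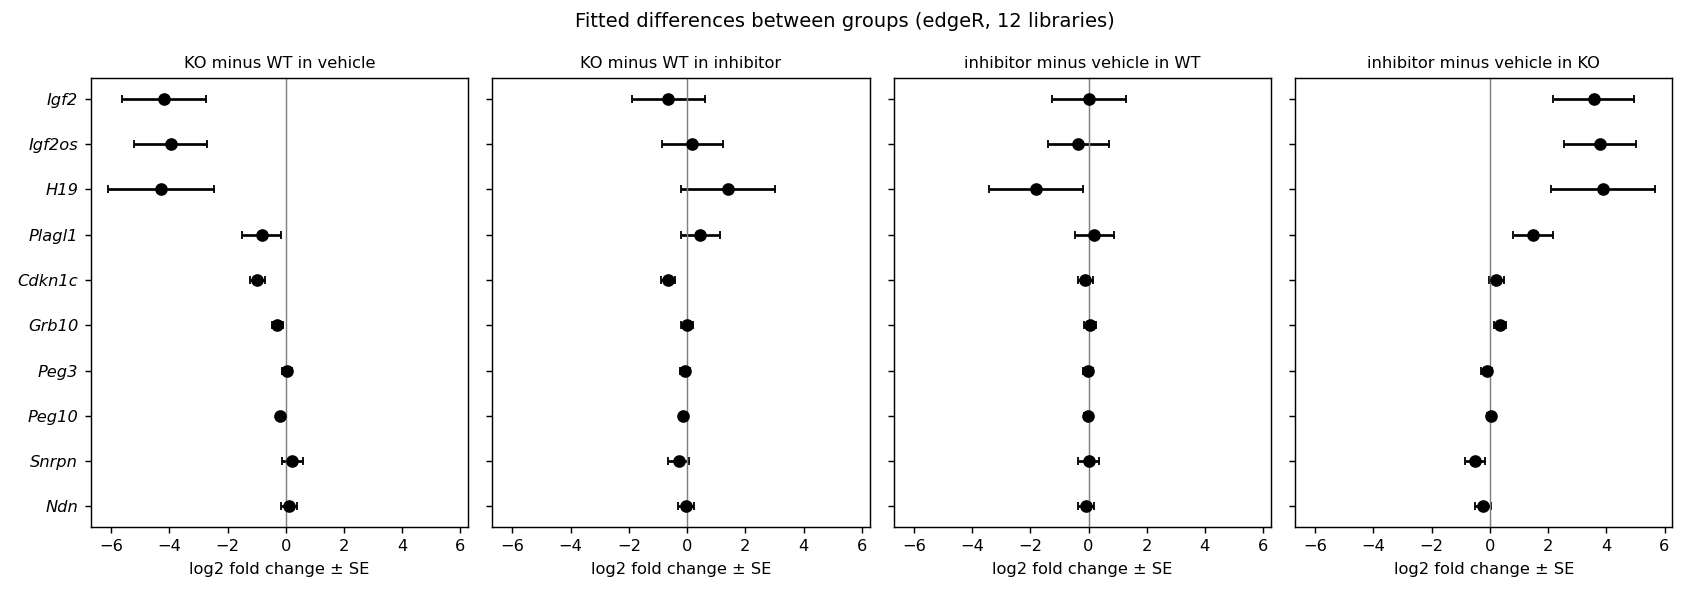
Fitted log2 differences with their SE for the 10 imprinted genes in 4 comparisons of 3 against 3 libraries (edgeR). In vehicle, Igf2, Igf2os and H19 lie at −4.19, −3.96 and −4.29 with SEs of 1.24 to 1.82; Peg3, Peg10, Snrpn and Ndn lie near 0.

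With the inhibitor, Igf2 was higher than with vehicle in all 3 KO lines and in 1 of 3 WT lines. In WT the inhibitor to vehicle ratio of Igf2 was 0.868, 0.275 and 11.9 in lines 1, 2 and 3, and in KO it was 1.40, 1.32 and 34.5. Igf2os gave ratios of 0.760, 0.316 and 4.38 in WT and of 2.10 and 46.7 in KO lines 1 and 3, while KO line 2 had 3 reads with vehicle and 13 with the inhibitor. H19 gave ratios of 0.782, 0.113 and 5.55 in WT and of 2.29, 0.835 and 54.0 in KO. Plagl1 gave 1.17, 0.525 and 2.63 in WT and 1.11, 0.986 and 7.46 in KO. In both genotypes line 3 had the largest ratio for these 4 genes. In KO lines 1 and 2 the ratio of Igf2 was much nearer to 1 than in line 3.

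In WT, the fitted inhibitor minus vehicle difference was 0.01 ± 1.26 for Igf2, −0.35 ± 1.06 for Igf2os and −1.80 ± 1.62 for H19. The libraries of the 2 treatments overlapped for all 10 genes, while 5.97% of all tested genes did not overlap. In KO the difference was 3.56 ± 1.40 for Igf2, 3.79 ± 1.23 for Igf2os, 3.89 ± 1.79 for H19 and 1.49 ± 0.69 for Plagl1. Without KO inhibitor 3 these became 0.50, 1.29, 1.29 and 0.21, so the larger values rest on that library. With the cell line as a replicate block, which pairs the 2 cultures of a line, the KO differences were 1.73 for Igf2, 2.67 for Igf2os, 2.43 for H19 and 0.95 for Plagl1, and the WT difference was 0.31 for Igf2, −0.04 for Igf2os and −0.38 for H19. Only Snrpn, lower with the inhibitor, did not overlap between treatments in KO, against 8.84% of all genes; its difference was −0.51 ± 0.36, and −0.13 without KO inhibitor 3.

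The interaction, the inhibitor difference in KO minus that in WT, was 3.55 ± 1.84 for Igf2, 4.14 ± 1.61 for Igf2os and 5.69 ± 2.40 for H19, and 0.49, 1.64 and 3.08 without KO inhibitor 3. With the cell line as a replicate block it was 1.42, 2.71 and 2.81. For the other 7 genes it lay between −0.52 ± 0.51 (Snrpn) and 1.29 ± 0.96 (Plagl1). No gene of the 15443 tested was called in the inhibitor comparisons or the interaction (0% in each, edgeR), with 47, 1088 and 185 genes at an unadjusted p under 0.05 in WT, KO and the interaction. DESeq2 also called none in these 3.

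The summed markers of several other cell types were higher in the libraries with more Igf2. The astrocyte sum followed Igf2 less. Its marker with the highest mean, Aldoc, was lowest in KO inhibitor 3 (124 CPM). Gja1 stood at 108, 72.5 and 229 CPM in WT vehicle 2, WT inhibitor 3 and KO inhibitor 3, above every other library. Slc1a3 stood at 31.8, 28.2 and 272 CPM there, also above every other library. The summed level of 10 mesenchymal markers, collagens and fibroblast regulators, was 138 to 1365 CPM in WT vehicle, 43.5 to 130 CPM in KO vehicle, 336 to 910 CPM in WT inhibitor and 96.0 to 589 CPM in KO inhibitor. All 10 averaged at least 1 CPM. In KO against WT none of the 10 was called (edgeR). Under each treatment 7 had an unadjusted p under 0.05, all lower in KO. Over all 15443 tested genes there were 307 in vehicle and 540 in inhibitor. Since the gene lists were chosen with earlier results of these data known, nothing is read from the 7. The median log2 difference of the 10 was −2.62 in vehicle and −2.52 in inhibitor, against −0.01 and 0.00 over all genes. Without WT vehicle 2 the vehicle median was −1.57. Across the 12 libraries, which come from 6 lines, the log2 mesenchymal sum had a Pearson r of 0.964 with log2 Igf2, and 0.966 without KO inhibitor 3. The same r was 0.887 for pluripotent, 0.868 for endothelial, 0.856 for muscle, 0.845 for endoderm, 0.832 for progenitor and 0.798 for choroid plexus markers. It was 0.301 for astrocyte markers (−0.07 without KO inhibitor 3), and −0.594 and −0.624 for GABAergic and glutamatergic markers. Only 1 of 6 pluripotent, 1 of 7 muscle and 3 of 6 endothelial markers averaged at least 1 CPM. The pluripotent and muscle sums were at most 12.6 CPM in any library. Pou5f1, Nanog, Myod1 and Myog averaged 0.104, 0.0972, 0.00861 and 0.00275 CPM. Whether pluripotent or muscle cells were present was not tested.

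The make-up of the mesenchymal sum was not the same in each Igf2-rich library. In WT vehicle 2 Col1a1, the fibrillar collagen of fibroblasts and bone, stood at 466 CPM and Pdgfra, a receptor of mesenchymal and glial precursor cells, at 152 CPM. In KO inhibitor 3 Col1a1 stood at 20.3 CPM and Pdgfra at 509 CPM, so the sum of 589 CPM was mostly Pdgfra. Col1a1, Col1a2, Col3a1, Dcn, Lum and Pdgfrb lay there within the range of the other KO libraries. Postn (1.97 CPM) and Twist1 (4.90 CPM) had their lowest level of all libraries there, while Prrx1 (5.63 CPM) and Pdgfra had their highest. The 7 endoderm markers summed to 8.32 to 114 CPM in WT vehicle, 3.07 to 22.2 CPM in KO vehicle, 24.2 to 90.4 CPM in WT inhibitor and 1.50 to 392 CPM in KO inhibitor; the highest value was KO inhibitor 3, where Foxa2 reached 96.8 CPM and Afp, the fetal liver and yolk sac protein, 45.3 CPM. Afp was at 0 in KO vehicle 2 and at or below 5.76 CPM in the other libraries.

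Summed progenitor markers (8 genes) ran from 45.6 to 451 CPM in WT vehicle, 42.1 to 120 CPM in KO vehicle, 119 to 417 CPM in WT inhibitor and 48.3 to 979 CPM in KO inhibitor. Choroid plexus markers (6 genes) ran from 10.6 to 93.1, 6.14 to 22.7, 24.2 to 91.2 and 5.12 to 262 CPM in the same order. Ttr is in both this list and the endoderm list, so the 2 sums are not separate. In KO inhibitor 3 Clic6 stood at 152 CPM and Ttr at 73.5 CPM. Kl had its lowest level there (0.732 CPM), while the other markers of this list had their highest. Endothelial markers (6 genes) summed to 2.46 to 165 CPM over all groups, with Cldn5 at 0 in every library. In KO inhibitor 3 Tek was at 131 CPM and Cdh5 at 26.6 CPM, while Pecam1 had its lowest level (0.254 CPM). Emcn stayed at or below 0.428 CPM. The 10 glutamatergic markers summed to 330 to 446 CPM in WT vehicle, 399 to 491 CPM in KO vehicle, 347 to 389 CPM in WT inhibitor and 121 to 489 CPM in KO inhibitor, the lowest value again in KO inhibitor 3. Astrocyte markers (7 genes) summed to 466 to 725 CPM in 9 libraries of the other 3 groups and to 611 to 1313 CPM in KO inhibitor, and GABAergic markers (8 genes) to 560 to 768 CPM and 268 to 761 CPM. The part of these cells in the Igf2, H19 and Plagl1 levels was not tested.

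**Figure D4:**
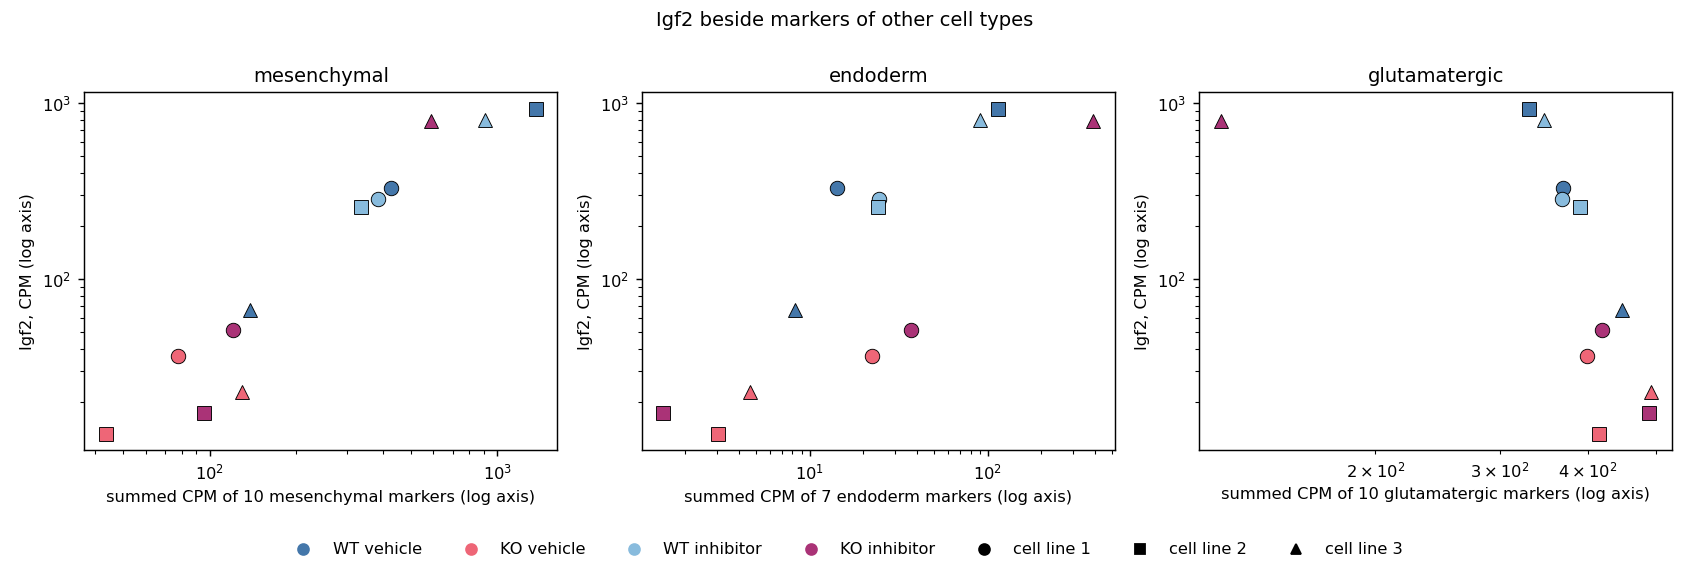
Igf2 CPM against the summed CPM of 10 mesenchymal, 7 endoderm and 10 glutamatergic markers (log axes) in the 12 libraries; colour gives the group and shape the cell line. Igf2 is higher where the mesenchymal sum is (r = 0.964), although in KO inhibitor 3 that sum is mostly Pdgfra. KO inhibitor 3 also has the highest endoderm and the lowest glutamatergic sum.

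Across libraries 5 of the 10 genes ran with Igf2, and Snrpn, Ndn and Peg3 ran against it. By Pearson r of log2(CPM + 0.5) over the 12 libraries, Igf2 was most like Igf2os (0.977), then H19 (0.895), Plagl1 (0.847), Cdkn1c (0.793) and Grb10 (0.720). It ran opposite to Ndn (−0.604), Snrpn (−0.549) and Peg3 (−0.523), and Snrpn and Ndn ran together (0.954). Without KO inhibitor 3 the r of Igf2 with Cdkn1c was 0.974, that with H19 0.880 and that of Snrpn with Ndn 0.737. Peg10 followed neither side: its r was 0.227 with Igf2 and 0.460 with Snrpn over 12 libraries, and 0.581 and −0.434 without KO inhibitor 3. The 12 points share lines and a common scaling, and these values are descriptions.

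With the 10 genes described here counted, 13424 genes had a mean of at least 1 CPM. Outside the 10, the 5 most like Igf2 began with Podn (r = 0.981), a small leucine-rich proteoglycan, and Fkbp10 (0.967), a collagen chaperone. The others were Colec12 (0.964), a scavenger receptor, Olfml3 (0.961), a secreted olfactomedin-like protein, and Ifitm3 (0.960), an interferon-induced membrane protein. Next came Mest (0.959), itself paternally expressed, which was singled out after its value was seen. Podn ran from 0.476 to 10.0 CPM and Fkbp10 from 1.38 to 28.1 CPM. Among the 5 most like H19 were Pdzk1 (0.980), a scaffold of transporters, Myl9 (0.965), a smooth muscle myosin light chain, Car4 (0.963), a carbonic anhydrase, and Slc43a3 (0.962), a membrane transporter. Neither set of 5 held a gene of the other.

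Other imprinted genes gave no call. Of 24 further paternally expressed genes, 22 had counts and 20 were tested, and of 22 maternally expressed genes 20 were tested; edgeR called none of either list in any of the 6 comparisons. In vehicle, the median KO minus WT difference was −0.15 for the paternal list and −0.06 for the maternal list, against −0.01 over all genes. At an unadjusted p under 0.05 there was 1 gene of each list in vehicle, Slc38a4 and Atp10a, both lower in KO. Over all 15443 tested genes there were 307.

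The 4 of the paternal list with the highest mean CPM were Nap1l5, Inpp5f, Nnat and Impact. Nap1l5, a nucleosome assembly protein relative, had a lowest, median and highest level of 1453, 1899 and 1992 CPM in WT and of 278, 1433 and 2011 CPM in KO. Inpp5f, a phosphoinositide phosphatase, had 1165, 1375 and 1452 CPM in WT and 226, 1547 and 1576 CPM in KO. Nnat (neuronatin) and Impact, a translational regulator, had medians of 878 and 397 CPM in WT and of 782 and 419 CPM in KO. All 4 had their lowest level in KO inhibitor 3, like Snrpn and Ndn.

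The smallest p-values over line sums in this list belonged to Slc38a4, an amino acid transporter, Mkrn3, a ubiquitin ligase, and Magel2, a ubiquitin ligase regulator of the Prader-Willi region. Slc38a4 was −2.07 ± 0.56 (log2, KO minus WT), with medians of 1.11 CPM in WT and 0.298 CPM in KO, and an adjusted p of 0.998 (edgeR). Mkrn3 and Magel2 were −0.43 ± 0.20 and −0.41 ± 0.24, with the same adjusted p. Mest ran from 25.8 to 61.8 CPM in the 6 WT libraries and from 13.8 to 20.3 CPM in 5 KO libraries, with 76.4 CPM in KO inhibitor 3. Sfmbt2, a polycomb-related gene of the placenta, had the same outlying library, at 86.5 CPM against at most 37.9 CPM elsewhere.

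Among maternally expressed genes, Gnas, which encodes the stimulatory G protein subunit, had a median of 918 CPM in WT and 1089 CPM in KO. Ube3a, the Angelman syndrome ubiquitin ligase, had 213 and 243 CPM, Cd81, a tetraspanin, 191 and 194 CPM, and Ppp1r9a (neurabin), an actin-binding scaffold of neurons, 136 and 142 CPM. None of the 4 passed the test (adjusted p = 0.998 for each, edgeR over line sums). Atp10a, a phospholipid flippase, was −0.79 ± 0.23, Asb4, a ubiquitin ligase subunit, −0.72 ± 0.29, and Calcr, the calcitonin receptor, 0.61 ± 0.28, also with adjusted p-values of 0.998. All 3 were at or below 3.85 CPM.

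**Figure D5:**
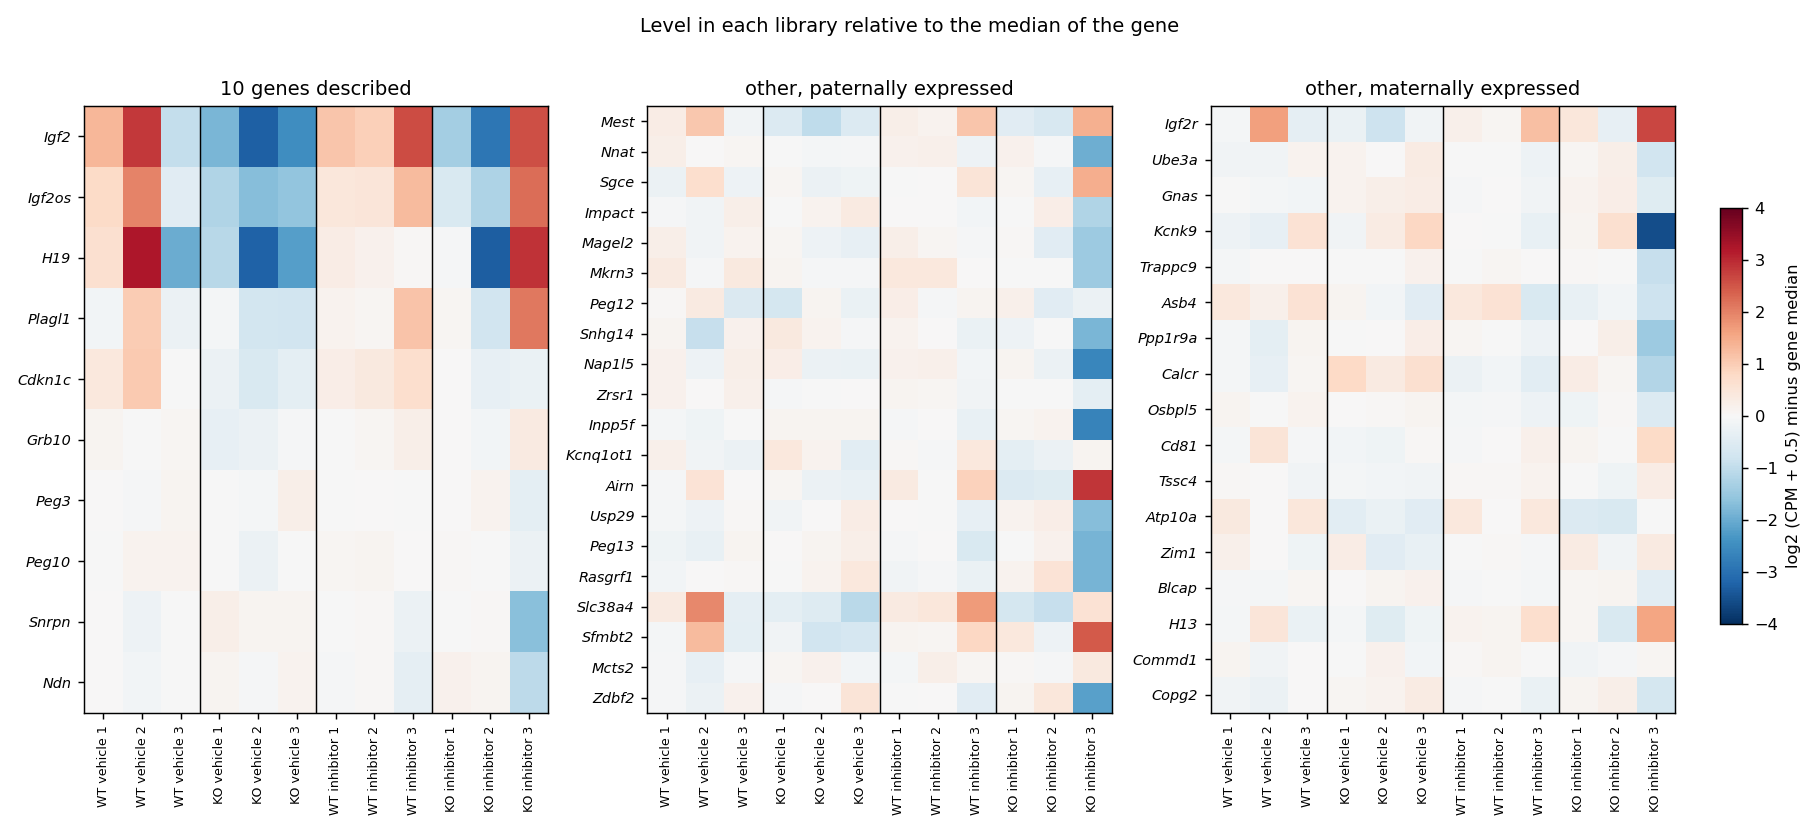
Level of the 10 genes (left) and of other imprinted genes with a mean of at least 1 CPM (paternally expressed, middle; maternally expressed, right) in each library, as log2(CPM + 0.5) minus the median of the gene. Igf2 and Igf2os are below their medians in 5 of 6 KO libraries and H19 clearly so in 4, with KO inhibitor 1 near its median; H19 and Igf2 are also below it in WT vehicle 3, and KO inhibitor 3 differs from the rest in many genes.

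Of 20 genes of the IGF pathway, all tested, none was called in any comparison. In vehicle 17 of 20 had a lower estimate in KO, with a median of −0.62 against −0.01 over all genes, and −0.11 without WT vehicle 2. In inhibitor 15 of 20 had a higher estimate, with a median of 0.35 against 0.00, but without KO inhibitor 3 only 8 of 20 did and the median was −0.24 against −0.05. Leaving libraries out of these lists was chosen after seeing the data. Among receptors, Igf2r, the mannose 6-phosphate receptor that clears IGF2, had a median of 68.2 CPM in WT and 53.8 CPM in KO. It is also in the list of maternally expressed genes used above, and its allelic use in these cultures was not tested. Its highest levels, 398, 194 and 144 CPM, were in KO inhibitor 3, WT vehicle 2 and WT inhibitor 3, the same 3 libraries that had the most Igf2. Insr, the insulin receptor, and Irs1, its substrate, had medians of 55.8 and 84.1 CPM in WT and 55.3 and 78.4 CPM in KO.

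Genes named as IGF binding proteins gave the smallest p-values of the pathway over line sums. Igfbp7 was at 3.75, 9.11 and 20.4 CPM (lowest, median, highest) in WT and at 1.15, 2.46 and 3.88 CPM in KO, a difference of −2.08 ± 0.23 over line sums (adjusted p = 0.165, edgeR). Igfbp6 was at 0.555, 0.754 and 1.67 CPM in WT and at 0.202, 0.316 and 0.471 CPM in KO, a difference of −1.67 ± 0.30 (adjusted p = 0.503, edgeR). Unlike Igf2, neither was raised in KO inhibitor 3, where Igfbp7 had its lowest level. Igfbp5, with the highest mean CPM of the pathway, was at 86.3 to 267 CPM in 11 libraries and at 1512 CPM in KO inhibitor 3.

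Of 17 genes that set or keep imprints, 15 were tested in the 12-library fit and 16 over line sums, and none was called. Dnmt1, the maintenance methyltransferase, was the steadiest named, at 94.4 to 109 CPM over all libraries. Trim28, the co-repressor recruited by imprint-binding zinc fingers, had medians of 216 CPM in WT and 213 CPM in KO, and Zfp445, one of those zinc fingers, 167 and 141 CPM. Dnmt3a, a de novo methyltransferase, had 449 and 469 CPM, with its lowest level, 144 CPM, in KO inhibitor 3. Ctcf, the factor that binds the insulator between Igf2 and H19, was at 59.8 to 66.0 CPM in WT and 63.7 to 70.9 CPM in KO, a difference of 0.12 ± 0.06 (adjusted p = 0.998, edgeR over line sums). Zfp57 and Tet2, an imprint-binding zinc finger and a methylcytosine oxidase, were −0.22 ± 0.15 and −0.19 ± 0.12, with the same adjusted p.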

How the data were processed

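Poly(A) RNA of 12 cultures was sequenced from strand-specific libraries, per the labels' protocols. The authors deposited 1 table per library with an Ensembl identifier, a whole-number read count and a cRPKM value for 36902 genes, of which 3342 were NA in every table. The deposited cRPKM values are a form of RPKM (reads scaled by transcript length and depth) whose correction is not described in the labels, and were used only to compare levels between genes. The build mm10 is given by the submitters' processing notes; the aligner, the annotation and the use of strand in counting are not given in the sources used here. Coordinates are from GENCODE M21 (GRCm38, the same assembly as mm10).

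The deposited counts were fitted with edgeR 4.0.16 in R 4.3.3 (TMM, filterByExpr, robust quasi-likelihood test): all 12 libraries with a coefficient per group (15443 genes), and the counts summed per cell line (16090 genes). The steps were tested on simulated data. DESeq2 1.42.0, other scalings, no filter, each library left out and a block were the alternatives. Vehicle and inhibitor libraries of a line are paired by the labelled cell line. The correlation of their deviations from the group means was 0.41, −0.55 and −0.72 for WT lines and −0.19, 0.57 and −0.37 for KO lines. Between libraries of different lines and groups it ran from −0.80 (WT vehicle 2 with KO inhibitor 2) to 0.80 (WT inhibitor 3 with KO inhibitor 3). The most alike libraries were thus not of the same labelled line.

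The members and gene lists were chosen with earlier results of these data known. Named from each further list were genes called, or, as none was, the 4 highest in mean CPM and the 3 with the smallest p over line sums, and for Igf2 and H19 the 5 genes most like them. Snurf and Zfp264 were not analysed here. A gene that the rule named beside H19 is not reported here.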

Additional observations from a re-analysis of the deposited data

How the results depend on the processing

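Genes called at an adjusted p under 0.05 numbered 0 in all 6 comparisons with edgeR, and also with each library or line left out (0 to 0), with RLE or library-total scaling and with a replicate block by cell line (0 called in both inhibitor comparisons and the interaction). A replicate block by line number across genotypes, where the samples share only a number, also gave 0. DESeq2 called 11 genes in KO against WT in vehicle, 18 in inhibitor and 88 over line sums, and the unfiltered edgeR fit over line sums called 2. Under DESeq2 the Cdkn1c difference was −0.78 ± 0.18 over line sums. Of 960 values of the 10 genes under alternatives, 937 moved by less than 1 SD between replicates and 23 by more, 20 of them with a library or line left out. The KO minus WT difference of Igf2 in vehicle ran from −4.70 to −3.04 with libraries left out, that of H19 from −5.44 to −2.15 and that of Cdkn1c from −1.20 to −0.65. Without WT line 2 the line-sum difference of H19 was 0.80, against −0.50 with all lines and −2.75 without KO line 3. The replicate block by cell line, paired, gave smaller inhibitor differences in KO and smaller interactions for Igf2, Igf2os and H19 (interaction 1.42, 2.71 and 2.81) and changed no call. With 4 reads in 1 library, H19 levels in KO are limited by counting.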
